A study of Mus musculus with 17 samples.

Results

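Transcript levels of the major urinary protein (Mup) family were examined in livers and tumors of mice lacking NgBR in the liver. The members were 9 genes, chosen by their measured values in earlier results of these same data, namely the comparison of knockout with WT liver under a high-fat diet (HFD) and that of tumor with WT liver under a Western diet (WD). Values of these 2 comparisons are therefore given as a description, with no p-value. Of the 9 symbols, 8 (Mup3, Mup7, Mup12, Mup15, Mup16, Mup17, Mup20 and Mup21) had a row in both count tables, out of 19151 genes listed for HFD, 24233 listed for WD and 19032 shared. Mup5 had no row in the tables used here and was not analysed. All 8 measured members were abundant enough in both tables to enter the tests.

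NgBR, encoded by Nus1, pairs with Dhdds to form the cis-prenyltransferase of dolichol synthesis, and dolichol carries the sugars for glycosylation of proteins. Liver-specific knockout (N-LKO) mice carried loxP-flanked NgBR alleles and an albumin-Cre transgene whose promoter is that of a hepatocyte gene, so Cre acts chiefly in hepatocytes. All mice were male and on the C57BL6 background, ate chow first, and were then fed HFD, or WD that is rich in fat and cholesterol, for 16 weeks. HFD gave 4 WT and 4 N-LKO (here also called knockout) livers. WD gave 3 WT livers, 3 N-LKO livers and 3 tumors of N-LKO mice. Mice were matched for age. Whether WT mice carried floxed alleles or Cre, and whether a tumor came from the same mouse as a sequenced liver are not given in the sources used here. The labels number the libraries of a group as biological replicates. A p-value sets a group difference against the spread between libraries, which edgeR estimates over all groups of a fit and with information shared across genes. Under WD, p-values for livers therefore also rest on the spread among tumors.

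Mup proteins are small lipocalins that hold volatile pheromones in a barrel-shaped pocket. Hepatocytes secrete them in large amounts and they pass into the urine, where they carry scent signals. In mice their liver transcription is higher in males, because the pulsed growth hormone of males drives the receptor Ghr, the kinase Jak2 and the transcription factor Stat5b. Mup20, also called darcin, is the male pheromone that attracts females and prompts competitive scent marking.

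HFD libraries held 9096110 to 12215784 counts and WD libraries 15494731 to 20200618. Levels are given as CPM, counts relative to a library size that was scaled by the trimmed mean of M-values (TMM), and they were compared within a diet, since diet and table cannot be told apart. Nus1, which checks the labels, lay at 82.5 to 96.2 CPM in WT and 29.4 to 38.0 CPM in knockout livers under HFD. Under WD it lay at 88.2 to 98.9 CPM in WT livers, 41.7 to 51.1 CPM in knockout livers and 29 to 44 CPM in tumors, so no WT library overlapped a knockout one. Its log2 fold change in knockout livers was −1.33 under HFD (edgeR adjusted p 0.000194) and −1.02 under WD (edgeR adjusted p 0.151). A library that stood apart in the Mup rows was WT liver replicate 2 under WD. Fold changes of the Mup members against WT livers under WD are also given without it (for Mup20 in knockout livers, within a range). Values of other genes and of the gene lists are given only with it.

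All members lie on the minus strand of chromosome 4, from 60066469 to 62150863 in GRCm38, a stretch of 2.08 Mb. Mup7, Mup12, Mup15, Mup16 and Mup17 belong to the central block of near-identical copies, while Mup20, Mup3 and Mup21 lie near each other at the far end. Mup7 spans 60066469 to 60070475, Mup12 60737383 to 60741326, Mup15 61435790 to 61439743, Mup16 61515592 to 61519531 and Mup17 61591929 to 61595871. Mup20 spans 62050234 to 62054158, Mup3 62083476 to 62087342 and Mup21 62147932 to 62150863. The reading frames of the 5 central members, from the GENCODE M21 transcripts of GRCm38, were 98.5% to 99.4% identical to each other and 82.2% to 91% identical to the other members. Mup3 and Mup21 shared 94.8% of their bases. The first 75 coding bases of each measured member are shown to set the near-identical central members beside the others. Capitals mark bases that differ from Mup7, or are inserted, in the alignment of the whole reading frames.
Mup7: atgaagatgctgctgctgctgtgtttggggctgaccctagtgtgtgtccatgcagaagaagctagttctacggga
Mup12: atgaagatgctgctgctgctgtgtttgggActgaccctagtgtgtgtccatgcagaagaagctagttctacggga
Mup15: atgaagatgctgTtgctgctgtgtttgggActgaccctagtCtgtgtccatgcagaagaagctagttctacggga
Mup16: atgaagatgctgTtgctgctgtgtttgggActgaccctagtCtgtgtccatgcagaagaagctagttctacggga
Mup17: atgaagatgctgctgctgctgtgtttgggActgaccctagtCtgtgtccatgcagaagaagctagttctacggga
Mup20: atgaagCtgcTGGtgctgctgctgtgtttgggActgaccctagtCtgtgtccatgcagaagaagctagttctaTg
Mup21: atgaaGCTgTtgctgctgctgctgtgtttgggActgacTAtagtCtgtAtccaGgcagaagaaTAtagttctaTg
Mup3: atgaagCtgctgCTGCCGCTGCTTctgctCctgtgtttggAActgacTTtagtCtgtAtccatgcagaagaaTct
Within this stretch Mup15 and Mup16 were the same, Mup12 differed from Mup7 at 1 base, and Mup3 at 21. The share of 75-base windows of a gene's transcripts found in no other Mup transcript was 0.0% for Mup15, 13.7% for Mup16, 18.9% for Mup7, 19.7% for Mup12 and 31.3% for Mup17. It was 56.4% for Mup20, 89.7% for Mup21 and 94.6% for Mup3. The authors divided a shared read between the genes it fits, so the split among the central members is an estimate. Their sum is the firmer value, though it still depends on the split with Mup rows outside the members. Mup20, Mup21 and Mup3 can be read as single genes with more confidence.

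Promoter windows from RefSeq (GRCm38.p6) were given for 5 members. They were searched on both strands for TTCNNNGAA (the letters of a Stat5 site), TTGCNNAA (C/EBP type) and TATAAA, which 8.3%, 10.8% and 13.6% of the 32851 promoters of the same length hold. None of the 5 windows held any of these letters, which says nothing of other sequence or of more distant sites. TATATAA, a search added after the windows had been read, was in 4 of the 5 and in 3.2% of all promoters. Those 4 windows are shown to set a central pair beside the Mup3 and Mup21 pair, with TATATAA in capitals. They lie on the minus strand at chr4:61439655-61439954 (Mup15), chr4:61595783-61596082 (Mup17), chr4:62087268-62087567 (Mup3) and chr4:62150792-62151091 (Mup21).
Mup15: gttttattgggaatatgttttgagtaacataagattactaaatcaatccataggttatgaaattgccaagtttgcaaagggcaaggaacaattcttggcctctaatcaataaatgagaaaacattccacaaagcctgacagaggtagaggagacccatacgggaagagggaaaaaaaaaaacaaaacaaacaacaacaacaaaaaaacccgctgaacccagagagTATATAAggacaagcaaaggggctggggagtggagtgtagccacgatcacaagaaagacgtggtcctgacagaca
Mup17: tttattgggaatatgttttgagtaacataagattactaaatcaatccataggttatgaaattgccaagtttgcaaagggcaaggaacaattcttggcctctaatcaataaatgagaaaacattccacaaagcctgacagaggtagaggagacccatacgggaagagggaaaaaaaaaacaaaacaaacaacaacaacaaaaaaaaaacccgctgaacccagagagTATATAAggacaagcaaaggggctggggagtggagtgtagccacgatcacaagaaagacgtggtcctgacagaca
Mup3: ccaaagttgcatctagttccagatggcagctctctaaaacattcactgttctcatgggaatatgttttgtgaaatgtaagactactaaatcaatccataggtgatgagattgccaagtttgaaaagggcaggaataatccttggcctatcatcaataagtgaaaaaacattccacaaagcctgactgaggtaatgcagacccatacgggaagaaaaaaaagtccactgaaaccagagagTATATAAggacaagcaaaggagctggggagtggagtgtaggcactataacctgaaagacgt
Mup21: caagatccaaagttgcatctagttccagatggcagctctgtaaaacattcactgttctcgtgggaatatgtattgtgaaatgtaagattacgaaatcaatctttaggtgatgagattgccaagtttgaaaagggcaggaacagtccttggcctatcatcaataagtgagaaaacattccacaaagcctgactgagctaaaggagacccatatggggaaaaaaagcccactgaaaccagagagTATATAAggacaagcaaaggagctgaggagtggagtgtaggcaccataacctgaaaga
The Mup15 and Mup17 windows were 98.0% identical, the Mup3 and Mup21 windows 90.2%, and Mup15 and Mup3 63.7%. Counted from the RefSeq start of each window, TATATAA began at −25 in Mup15 and Mup17, at −11 in Mup3 and at −8 in Mup21. For these 4 genes that start differs from the gene bound given above, so the distances depend on the annotation. The Mup7 window ends upstream of the place where TATATAA stands in the Mup15 window, so its lack there says nothing of Mup7.

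Levels of different members were compared in CPM per kilobase of annotated exons. Mup20 was the most abundant member in each of the 5 groups and Mup3 came next. In WT livers under HFD, Mup20 lay at 11381 and Mup3 at 7518 CPM per kilobase, then Mup7 at 4349, Mup15 at 1733, Mup17 at 959, Mup21 at 314, Mup16 at 223 and Mup12 at 123. From Mup7 down, each gene's libraries overlapped those of the next gene in that order. In knockout livers under WD, Mup20 lay at 8604 and Mup3 at 859 CPM per kilobase, and the other members between 1.63 and 50.9. In tumors under WD, Mup20 lay at 3425 CPM per kilobase, Mup3 at 261, Mup21 at 6.53, and the 5 central members between 0.249 and 5.06. The 8 members took 2.10% to 3.04% of all counts in WT livers under HFD and 0.725% to 1.24% in WT livers under WD.

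**Figure D1:**
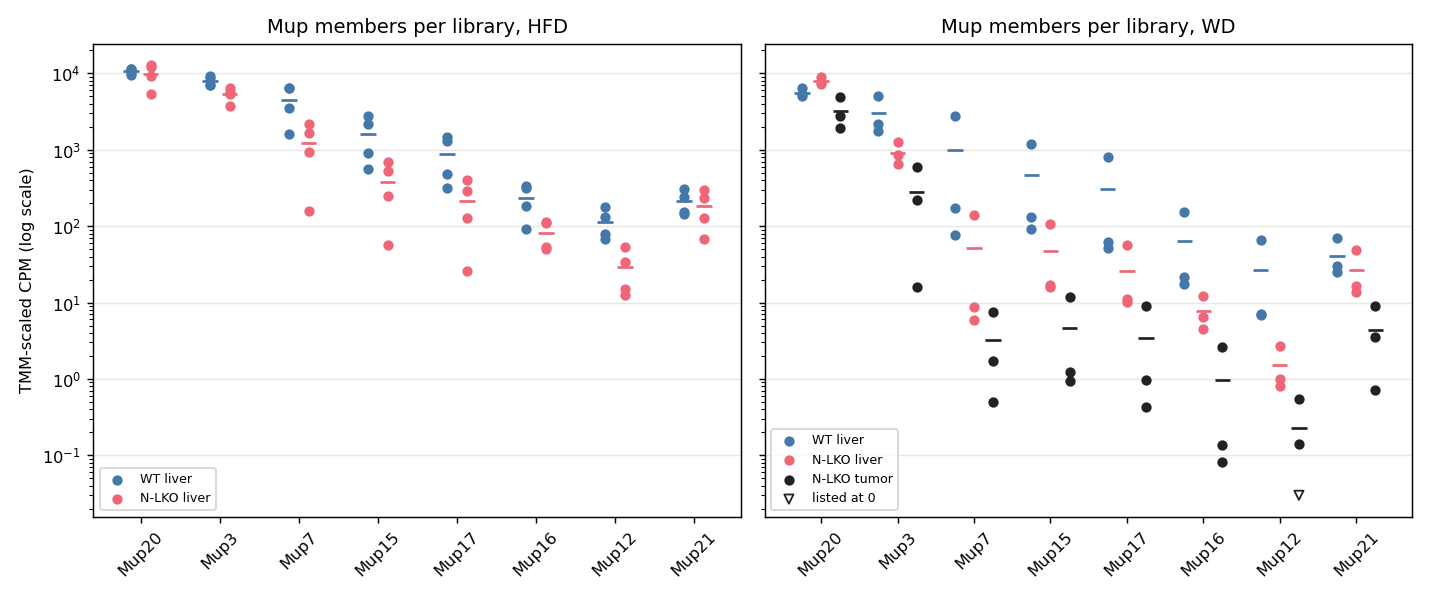
TMM-scaled CPM (log axis) of the 8 measured Mup members in every library under HFD (left) and WD (right). Each point is a library, short lines are group means, and the open triangle is Mup12 in tumor replicate 3, which is listed at 0 and drawn below the axis values of the others. Tumors lie below WT livers for each member, while Mup20 in N-LKO livers under WD, at 7179 to 8998 CPM, lies above WT livers, at 5005 to 6373 CPM.

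The comparison of knockout with WT livers under HFD asks how loss of NgBR in hepatocytes changed these genes in a fatty liver. Of the 8 members, 2 passed as lower in knockout livers by edgeR at an adjusted p of 0.05, Mup12 and Mup16, and none as higher. Of all 13460 genes tested, 2.29% passed as lower and 2.56% as higher. In bulk tissue, fewer cells of a type and less RNA per cell cannot be told apart, here and in all comparisons that follow. This contrast chose the members, so nothing is read from the difference. Mup12 lay at 67, 130, 180 and 78.3 CPM in the WT livers and at 15.2, 12.7, 34.3 and 53.6 CPM in the knockout livers. All knockout libraries were below the lowest WT library, and the log2 fold change was −1.98 (SE 0.431). Mup16 lay at 92.4, 320, 331 and 181 CPM in WT and 52.8, 49.7, 113 and 110 CPM in knockout livers, with a log2 fold change of −1.51 (SE 0.383). WT replicate 1 overlapped the upper 2 knockout livers.

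Mup3, at 6997, 8740, 9254 and 7127 CPM in WT livers, lay at 5438, 3731, 5661 and 6463 CPM in knockout livers. Its groups did not overlap, and the log2 fold change of −0.59 (SE 0.165) did not pass. Groups did not overlap in the lower direction for 2 members, Mup3 and Mup12, and for 7.40% of all genes tested. The other central members spread widely within each group. Mup7 lay at 1582, 6500, 6402 and 3487 CPM in WT livers and 924, 156, 1657 and 2146 CPM in knockout livers, and the highest knockout libraries exceeded the lowest WT library. Mup15 ranged from 560 to 2791 CPM in WT and from 56.1 to 689 CPM in knockout livers, and Mup17 from 312 to 1487 and from 25.5 to 404 CPM. Log2 fold changes of Mup7, Mup15 and Mup17 were −1.88 (SE 0.627), −2.08 (SE 0.651) and −2.07 (SE 0.685), and none passed.

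Mup20 and Mup21 overlapped between the genotypes under HFD. Mup20 lay at 11288, 11455, 10041 and 9462 CPM in WT livers and at 9242, 5335, 11923 and 12658 CPM in knockout livers. The knockout livers held both the highest and the lowest values, and the log2 fold change was −0.11 (SE 0.219). Mup21 ranged from 143 to 309 CPM in WT and from 68.5 to 300 CPM in knockout livers (log2 fold change −0.23, SE 0.381). Without knockout replicate 2, the library with the lowest Mup sum, the fold changes of Mup20 and Mup21 were 0.09 and 0.05. The median over the 8 members was −1.69, beside −0.01 over all genes tested. The calls rested on single libraries, since 0 members passed without knockout replicate 1 or 3 or WT replicate 2 or 3, and 1 (Mup12) without knockout replicate 2 or 4 or WT replicate 4.

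Under WD, knockout and WT livers were compared with the same question. The WT libraries are shared with the comparison that chose the members. By edgeR 0 of the 8 members passed in either direction (adjusted p 0.353 to 0.708), as did 0% of the 17829 genes tested, while 5 members and 2212 of all genes (12.4%) had an unadjusted p under 0.05. DESeq2 and limma-voom called 0 members as well. The median over the 8 members was −3.18, beside 0.01 over all genes. Log2 fold changes of the 5 central members lay between −4.27 (Mup7, SE 1.62, adjusted p 0.375) and −3.04 (Mup16, SE 0.964, adjusted p 0.353). Mup7 lay at 77.2, 2745 and 171 CPM in WT livers and at 8.64, 140 and 5.88 CPM in knockout livers. In both groups replicate 2 was more than the other two together, and knockout replicate 2 lay between the lower WT libraries. Mup15 ranged from 92.6 to 1179 CPM in WT and from 16.0 to 108 CPM in knockout livers, Mup16 from 17.7 to 151 and from 4.47 to 12.1 CPM, and Mup17 from 51.9 to 813 and from 10.1 to 57.1 CPM. Mup12 lay at 6.83, 65.6 and 6.98 CPM in WT and 0.812, 2.73 and 0.999 CPM in knockout livers, with no overlap (log2 fold change −4.09, SE 0.979, edgeR adjusted p 0.353).

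The members with more of their own sequence diverged under WD. Mup3 lay at 1743, 5045 and 2183 CPM in WT and 845, 1252 and 654 CPM in knockout livers, with no overlap (log2 fold change −1.70, SE 0.899, edgeR adjusted p 0.457). Mup20 went the other way. It lay at 6373, 5368 and 5005 CPM in WT livers and at 7179, 8998 and 7777 CPM in knockout livers, so that each knockout library was above each WT library, by a log2 fold change of 0.52 (SE 0.314, edgeR adjusted p 0.503). Mup21, at 29.7, 68.9 and 24.8 CPM in WT livers, lay at 16.4, 48.9 and 13.6 CPM in knockout livers, with overlap (−0.65, SE 0.712, edgeR adjusted p 0.708). Groups did not overlap in the lower direction for 3 members (Mup3, Mup12 and Mup16) and 13.6% of all genes, and in the higher direction for 1 member (Mup20) and 14.4% of all genes. Without WT replicate 2 the fold changes were −1.27 for Mup7, −2.16 for Mup12, −1.25 for Mup15, −1.36 for Mup16, −1.14 for Mup17, −1.10 for Mup3 and −0.06 for Mup21. Without knockout replicate 2 that of Mup7 was −7.10. Mup20 kept a positive fold change in each fit that left out a library (0.42 to 0.62). Hepatocyte markers summed to 51441 to 67430 CPM in these WT livers and to 36584 to 45850 CPM in these knockout livers, and their part in the result was not tested.

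**Figure D2:**
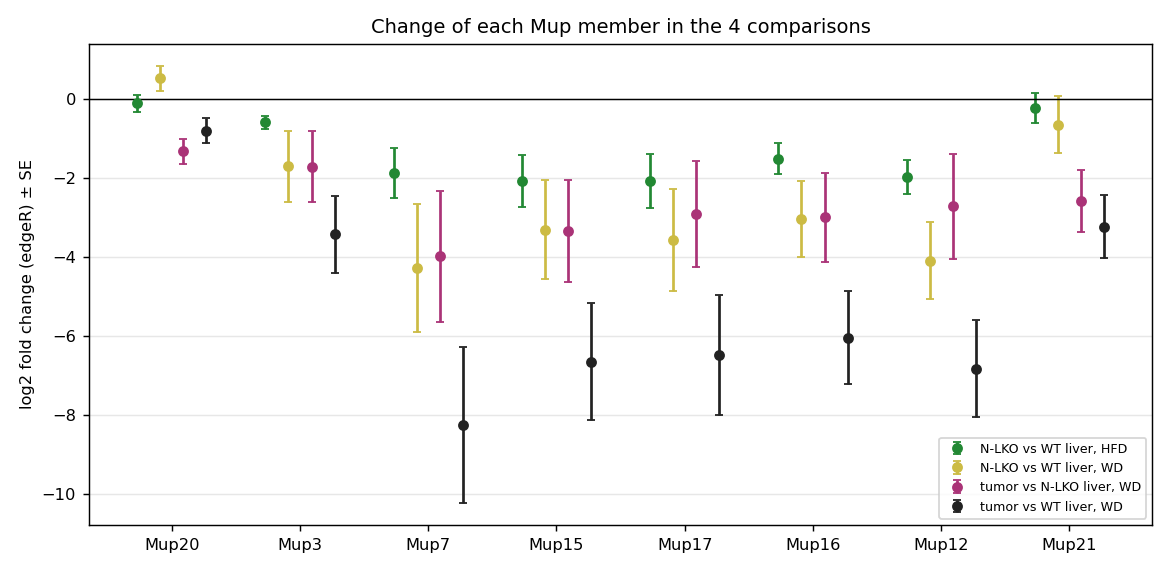
edgeR log2 fold change with its SE (bars) of each measured Mup member in the 4 comparisons. Values run from −8.25 for Mup7 in tumor against WT liver to 0.52 for Mup20 in N-LKO against WT liver under WD, the only point above 0.

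Tumors were set against knockout livers to ask what separates a tumor from non-tumor liver of the same genotype. The tumor libraries are shared with the comparison that chose the members. By edgeR 0 of 8 members passed (adjusted p 0.0884 to 0.343), with 5 members and 3256 of all genes (18.3%) at an unadjusted p under 0.05, and 0.0617% of all genes passed as lower and 0.437% as higher. DESeq2 called 1 member, Mup20, and limma-voom 0. The median over the 8 members was −2.82, beside 0.02 over all genes. Mup20 lay at 4908, 1901 and 2726 CPM in tumors, each below each knockout liver (log2 fold change −1.33, SE 0.318, edgeR adjusted p 0.0884, over the alternatives 0.000722 with DESeq2 to 0.305 without knockout replicate 2). Mup3 lay at 600, 16.2 and 219 CPM in tumors (−1.72, SE 0.900, adjusted p 0.343) and Mup21 at 9.05, 0.712 and 3.49 CPM (−2.58, SE 0.778, adjusted p 0.133). Tumors lay below knockout livers with no overlap for 7 of 8 members, all but Mup7, and for 11.6% of all genes. Tumor replicate 1 held the highest level of each member among the tumors, and without it 3 members passed, Mup20, Mup16 (edgeR adjusted p 0.0413) and Mup21 (edgeR adjusted p 0.0243).

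Against WT livers, 7 of 8 members passed as lower in tumors, all but Mup20, beside 6.80% of all genes tested, while 8.08% of all genes passed as higher. No overlap was found for 8 members and 16.4% of all genes. This contrast also chose the members, whose median was −6.26 beside 0.04 over all genes. Mup7 lay at 7.57, 1.71 and 0.496 CPM in tumors, each below the 77.2 to 2745 CPM of the WT livers. Mup15 lay at 11.9, 0.943 and 1.25 CPM, Mup16 at 2.65, 0.0807 and 0.138 CPM, Mup17 at 8.99, 0.424 and 0.979 CPM, and Mup12 at 0.553 and 0.140 CPM with replicate 3 listed at 0. Among the members these central ones fell furthest here, with log2 fold changes from −8.25 (Mup7, SE 1.97) to −6.04 (Mup16, SE 1.17). Mup3 fell by 3.43 (SE 0.962) and Mup21 by 3.23 (SE 0.793) on the log2 scale. Mup20 had a log2 fold change of −0.81 (SE 0.315) that did not pass. Without WT replicate 2 the fold changes were −5.25 for Mup7, −4.88 for Mup12, −4.59 for Mup15, −4.36 for Mup16, −4.06 for Mup17, −2.83 for Mup3, −2.64 for Mup21 and −0.85 for Mup20. The count passing was 2 (Mup12 and Mup16) without WT replicate 2, 3 without tumor replicate 3, 4 without tumor replicate 2, 4 in the fit of only the 2 groups and 8 without tumor replicate 1. Hepatocyte markers summed to 37865 to 65751 CPM in tumors, overlapping both liver groups. Most of that sum was Alb, at 29245, 28721 and 49067 CPM in tumors (log2 fold change against WT livers −0.03). All 9 markers had negative fold changes in tumors against WT livers, with a median of −0.80. Their part in these results was not tested.

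The sum over the 8 members does not depend on how shared reads were split among them, but it does depend on the split with other Mup rows. It changed less than the central members did. Under HFD it lay at 21042, 31733, 29794 and 21962 CPM in WT livers and 16173, 9433, 20501 and 22755 CPM in knockout livers, and only knockout replicate 4 reached into the WT range. The log2 ratio of the group means was −0.60 (SD of log2 sums within groups 0.45). Under WD the sum was 8392, 15436 and 7606 CPM in WT livers, 8083, 10620 and 8484 CPM in knockout livers and 5549, 1922 and 2951 CPM in tumors. The livers of both genotypes overlapped, with a log2 ratio of −0.21 that was 0.18 without WT replicate 2 and 0.04 with plain library totals. Each tumor was below each liver, with log2 ratios of −1.38 against knockout and −1.59 against WT livers, the latter −1.20 without WT replicate 2.

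The 5 central members and the other Mup rows moved apart from Mup20. Under HFD the central members summed to 2613, 11228, 10345 and 5131 CPM in WT and 1364, 300, 2617 and 3403 CPM in knockout livers (log2 ratio −1.93). Under WD they summed to 246, 4954 and 394 CPM in WT livers, 41.9, 320 and 39.4 CPM in knockout livers and 31.6, 3.30 and 2.86 CPM in tumors. The rows of the family outside the members, 21 listed for HFD and 18 for WD, summed to 7495 to 16974 CPM in WT and 3973 to 10322 CPM in knockout livers under HFD. Under WD these rows summed to 2297 to 8341 CPM in WT livers, 1111 to 2797 CPM in knockout livers and 53.3 to 741 CPM in tumors. They hold reads shared with the members and are no independent measure.

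The make-up of the sum shifted toward Mup20. Mup20 held 53.6%, 36.1%, 33.7% and 43.1% of the members' counts in WT livers under HFD and 57.1%, 56.6%, 58.2% and 55.6% in knockout livers, with no overlap. Under WD its share was 75.9%, 34.8% and 65.8% in WT livers, 88.8%, 84.7% and 91.7% in knockout livers and 88.5%, 98.9% and 92.4% in tumors. Knockout livers again lay above all WT livers, and tumors overlapped knockout livers. A share within a library does not depend on how libraries were scaled.

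**Figure D3:**
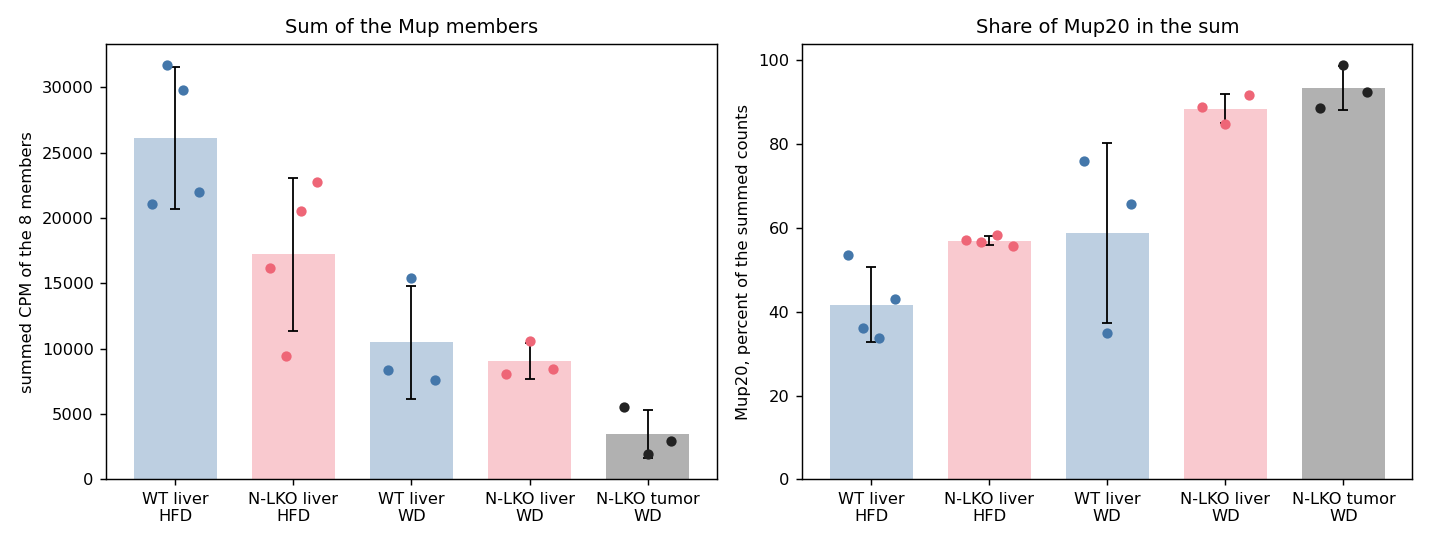
Summed CPM of the 8 members (left) and the percentage of their summed counts that is Mup20 (right), by group. Points are libraries, bars are group means and error bars the SD. The sum is lowest in tumors, at 1922 to 5549 CPM, and under WD the share of Mup20 is 34.8% to 75.9% in WT livers, 84.7% to 91.7% in N-LKO livers and 88.5% to 98.9% in tumors.

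**Figure D4:**
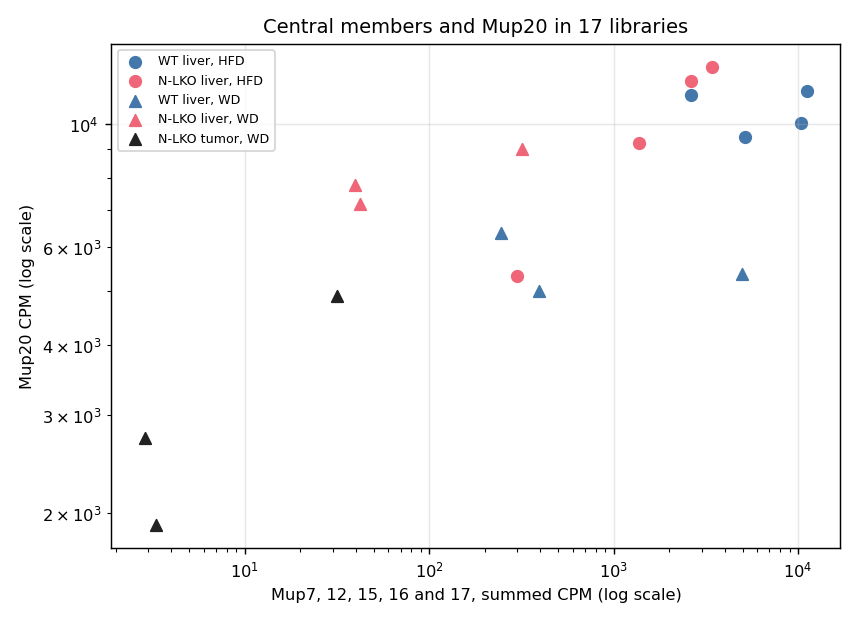
Mup20 CPM against the summed CPM of Mup7, Mup12, Mup15, Mup16 and Mup17 in the 17 libraries, both on log axes. Points are to be compared within a diet. Under WD the central sum spans 2.86 to 4954 CPM while Mup20 spans 1901 to 8998 CPM.

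Whether the genotype effect differed between the diets was tested in a fit of the 14 livers with an interaction term. It is built in part on the HFD contrast that chose the members. By edgeR 0 of 8 members passed (adjusted p 0.180 to 0.805), with 1 (Mup3) and 3171 of all genes at an unadjusted p under 0.05, and 1.62% of the 15850 genes tested passed in either direction. DESeq2 and limma-voom called 0 members. The difference, WD minus HFD, was −1.08 (SE 0.434, edgeR adjusted p 0.180) for Mup3 and 0.65 (SE 0.318, edgeR adjusted p 0.270) for Mup20, and it was negative for the other 6 members, with values of −2.35 to −0.38. Without WT replicate 2 under WD it was positive for 5 of those 6, at 0.61 for Mup7, 0.84 for Mup15, 0.16 for Mup16, 0.94 for Mup17 and 0.18 for Mup21.

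Across libraries the members varied together to unequal degrees. The correlation of a member's log2 CPM with the log2 sum of the other members, given as a description over 8 HFD and 9 WD libraries that also share reads, was 0.99 and 0.91 for Mup15 and 0.99 and 0.92 for Mup17. For Mup20 it was the lowest in both tables, at 0.64 and 0.73. Outside the family, the 5 genes whose pattern was most like the sum, among 9175 candidates with at least 5 CPM in each table, were Slc1a2, Ldhd, Cyp2c50, Rgn and Gulo. Slc1a2 is a glutamate transporter, Ldhd a mitochondrial D-lactate dehydrogenase, Cyp2c50 a cytochrome P450, Rgn regucalcin and Gulo the last enzyme of vitamin C synthesis. Their Pearson correlations with the log2 sum lay between 0.92 and 0.99 in both tables. Under HFD the WT livers had 626 ± 89.3 CPM of Cyp2c50 (SD, n = 4), for example, and the knockout livers 412 ± 160 CPM (n = 4). Under WD it lay at 357 ± 45.5 CPM in WT livers, 192 ± 27.1 CPM in knockout livers and 60.8 ± 66.2 CPM in tumors (n = 3 each).

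The genes that carry the growth hormone signal were read from a list of 15 genes, of which 14 were tested. Under HFD 0 passed as higher and 1 as lower, Igfals, a liver-made binding partner of circulating Igf1 (log2 fold change −0.47, SE 0.117), beside 2.29% of all genes passing as lower. The list's median was −0.28 beside −0.01 over all genes, with 12 of 14 fold changes negative. Ghr, the receptor, lay at 595 ± 26.4 CPM in WT and 503 ± 62.4 CPM in knockout livers (n = 4 each), and Stat5b at 34.5 ± 3.51 and 33.5 ± 0.993 CPM, neither of which passed. The groups of Ghr did not overlap, nor did those of the kinase Jak2 (−0.30, SE 0.101, not passing), Igfals and Nr3c1, all lower in knockout livers. Those of the other genes tested in the list overlapped, and 7.40% of all genes showed no overlap in the lower direction. Under WD 0 passed between knockout and WT livers or between tumors and knockout livers (medians −0.36 and −0.09). In tumors against WT livers 4 passed as lower (median −0.55), beside 6.80% of all genes. Those 4 were Igf1 (−1.42), Igfals (−1.32), Socs2, a feedback inhibitor of the pathway (−1.12), and the hepatocyte transcription factor Hnf4a (−0.75). Ghr lay at 502 ± 47.6 CPM in WT livers, 395 ± 60.1 CPM in knockout livers and 317 ± 78.4 CPM in tumors. The tumors did not overlap the WT livers (−0.66, SE 0.208, not passing), as was so in the lower direction for 16.4% of all genes. Stat5b lay at 58.4 ± 1.54 CPM in WT livers, 58.5 ± 2.47 CPM in knockout livers and 59.1 ± 3.45 CPM in tumors (n = 3 each).

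Other liver genes known to be higher in male mice were read from a list of 18. Under HFD 7 of 17 tested passed as lower in knockout livers and 0 as higher, with a median of −0.81, beside 2.29% of all genes passing as lower. They included Hsd3b5, a steroid dehydrogenase of male liver (−4.49, SE 0.860), the organic anion transporter Slco1a1 (−2.44, SE 0.473), the oxysterol hydroxylase Cyp7b1 (−1.15, SE 0.215) and Obp2a, itself a lipocalin (−2.20, SE 0.485). Under WD 0 of 16 passed between knockout and WT livers (median −0.79, all 16 with a negative fold change). Between tumors and knockout livers 0 passed, with a median of −0.21 and 11 of 16 fold changes negative. In tumors against WT livers 4 passed as lower, beside 6.80% of all genes. Among them were Elovl3, a fatty acid elongase (−3.17, SE 0.727), and Cyp7b1 (−1.77, SE 0.461). Among WT livers under WD, replicate 2 held the highest summed level of this list, 6007 CPM against 2075 and 2262 CPM in replicates 1 and 3. Of its 6007 CPM, 2410 CPM were Serpina1e. That library was also highest for the central Mup members, but this was not particular to male-biased genes. It was highest too for the sums of hepatocyte markers, growth hormone genes, and lipocalins and carriers. The female-biased sum was also highest there (3868 CPM against 1286 and 3158 CPM), but most of it was Cyp4a14. That gene lay at 3732 CPM in replicate 2 and at 1067 and 2922 CPM in replicates 1 and 3. Other genes of that list did not all follow, as Cyp2b9 was lowest in replicate 2 (1.36 CPM against 53.4 and 41.7 CPM). Replicate 2 was lowest for the sums of macrophage, cholangiocyte, stellate cell and lymphocyte markers. Of 22 genes known to be higher in females, 11 were tested under HFD, where 1 passed as higher, Cyp2a4 (2.61, SE 0.376), 0 passed as lower, and the median was 0.63, beside 2.56% of all genes passing as higher. Under WD 0 of 16 passed between knockout and WT livers, with a median of 0.14, and 0 passed between tumors and knockout livers (median 0.75). Tumors against WT livers gave 2 higher, Cyp2a4 and Fmo2, and 1 lower, Cyp4a14, beside 8.08% of all genes higher and 6.80% lower.

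**Figure D5:**
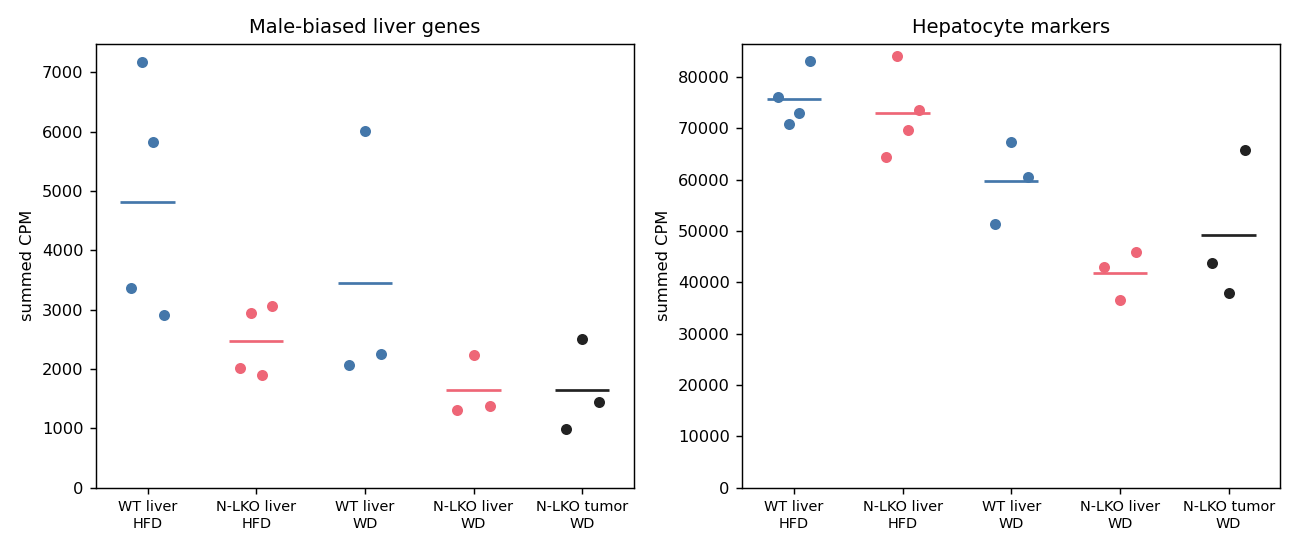
Summed CPM of the male-biased liver genes (left) and of the hepatocyte markers (right) in every library, with group means as lines. WT replicate 2 under WD reaches 6007 CPM for the male-biased genes, and the hepatocyte markers run from 36584 to 45850 CPM in N-LKO livers and 37865 to 65751 CPM in tumors under WD. Alb makes up most of each hepatocyte sum.

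Markers of the cells in the samples were read beside the Mup values. The 9 hepatocyte markers in the tables, with none at 0 in any group, summed to 70882 to 83145 CPM in WT and 64490 to 84067 CPM in knockout livers under HFD, where 0 of 9 passed. Under WD, of these 9, 0 passed between knockout and WT livers, where 0% of all genes did, but all 9 fold changes were negative (median −0.53). Alb, Apoa2, Ttr, Serpina1c and Pck1 were lower in these knockout livers with no overlap, as were 13.6% of all genes. Between tumors and knockout livers 0 of 9 passed (median −0.21). Against WT livers, 4 passed as lower in tumors, beside 6.80% of all genes, and all 9 fold changes were negative (median −0.80). Alb made up most of each hepatocyte sum. The 6 cholangiocyte markers, none at 0 throughout a group, summed to 20.5 to 38.9 CPM in WT and 55 to 100 CPM in knockout livers under HFD. Under WD the median sum was 69.2 CPM in WT livers, 146 CPM in knockout livers and 377 CPM in tumors, and the groups did not overlap. Most of each sum was Spp1, at 348, 132 and 490 CPM in tumors, with Sox9 next. Under HFD 1 of 2 tested, Spp1, passed as higher, beside 2.56% of all genes, and under WD 0 of 6 passed between livers (median 1.20). Tumors against knockout livers gave 1 higher, Sox9, beside 0.437% of all genes. Krt19, Krt7, Epcam and Cftr had fold changes of −1.06 to −0.65 that did not pass, and the median was −0.84. Tumors against WT livers gave 2 higher, Sox9 and Spp1, beside 8.08% of all genes, with a median of 0.49. Epcam lay at 3.37, 0.0890 and 0.104 CPM in tumors against 0.610 to 1.07 CPM in WT livers. The part of either list in the Mup results was not tested.

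Markers of macrophages, endothelial cells, stellate cells and lymphocytes were also summed. Under HFD, Clec4f of macrophages (−0.90) and Stab2 of endothelium (−0.61) passed as lower in knockout livers, beside 2.29% of all genes. All 6 macrophage markers had negative fold changes (median −0.58). Under WD 0 of the 4 lists passed between livers of both genotypes or between tumors and knockout livers. Against WT livers, Cd5l of macrophages, Clec4g of endothelium and Reln of stellate cells passed as lower in tumors, beside 6.80% of all genes. The endothelial Pecam1 and the leukocyte gene Ptprc passed as higher, beside 8.08% of all genes. Macrophage markers summed to 158 ± 23.6 CPM in WT and 107 ± 35.8 CPM in knockout livers under HFD (SD, n = 4 each), and to 563 to 855, 573 to 669 and 335 to 634 CPM in WT livers, knockout livers and tumors under WD. Endothelial markers summed to 91.8 to 111 and 68.8 to 96.7 CPM under HFD and to 211 to 260 CPM in all WD libraries. Stellate cell and fibroblast markers summed to 139 to 244 and 195 to 275 CPM under HFD, and to 412 to 816, 759 to 921 and 483 to 890 CPM in the 3 WD groups. Lymphocyte markers summed to 9.72 to 14.8 CPM under HFD, and to 27.2 to 54.6, 68.7 to 77.4 and 55.6 to 108 CPM in the 3 WD groups. No marker of these 4 lists was at 0 throughout a group, and their part in the Mup results was not tested.

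Lipocalins and carriers that hepatocytes make outside the Mup cluster formed a list of 10, of which 8 were tested. Under HFD 0 passed, with a median of −0.09, and Rbp4, the retinol carrier, lay at 2528 ± 266 CPM in WT and 2724 ± 141 CPM in knockout livers (n = 4 each). Under WD 0 passed between knockout and WT livers (median −0.46) or between tumors and knockout livers (0.58). Tumors against WT livers gave 1 lower, Rbp4 (−0.96, SE 0.186), and 1 higher, Lcn2, an iron-scavenging lipocalin of inflammation (1.91, SE 0.501). Of all genes, 6.80% passed as lower and 8.08% as higher there.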

How the data were processed

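The authors deposited gene-level estimated counts, made in Partek by expectation-maximization, which divides a read among the genes it fits. RNA was depleted of ribosomal RNA and sequenced as single-end reads. The submitters' processing notes name STAR, Partek and mm9, and the study's methods name TopHat2, but 99.5% (HFD) and 99.4% (WD) of matched genes start where GRCm38 has them. Software versions, annotation release and strand use are not given in the sources used here. Rounded counts entered edgeR 4.0.16 under R 4.3.3 (TMM, filterByExpr, quasi-likelihood test, Benjamini-Hochberg adjusted p under 0.05 over all genes tested). A first fit held the 8 HFD livers, another the 9 WD libraries, and another all 14 livers with an interaction term. All 17 libraries were used. The study's own test needs aligned reads and was not used here. Fits were tested on simulated data. Alternatives were DESeq2 1.42.0, limma-voom (limma 3.58.1), other scalings, no filter, an offset for gene length, the replicate number as a block, and leaving out each library.

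The members and gene lists were chosen with earlier results of these data known. Named were each member, Nus1, genes of those lists, and the 5 genes most like the sum by Pearson correlation of log2 CPM (prior count 2), ranked by the lower of the HFD and WD values, automatic names passed over (0 were). Each SE is the absolute log2 fold change divided by the square root of its F statistic.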

Additional observations from a re-analysis of the deposited data

How the results depend on the processing

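Under HFD 2 members passed, 1 with limma-voom, 3 with DESeq2, and 0 to 2 when a library was left out. For N-LKO against WT liver under WD, and for the difference between diets, 0 members passed in each alternative and each fit without a library. For tumor against N-LKO liver 1 passed with DESeq2 and 0 to 3 without a library. For tumor against WT liver the count was 4 in the fit of only the 2 groups and 2 to 8 without a library. DESeq2 gave no adjusted p for Mup12 and Mup17 under WD. The log2 ratio of the family sum ranged, as libraries were left out, from −0.77 to −0.40 under HFD, −0.39 to 0.18 for N-LKO against WT liver under WD, −1.90 to −1.09 for tumor against N-LKO liver and −2.10 to −1.20 for tumor against WT liver. Without Mup20, an alternative chosen after seeing the data, it was −1.07 under HFD, −2.18 for N-LKO against WT liver under WD and −4.05 for tumor against WT liver. In WT livers under WD the sum without Mup20 was 2019, 10068 and 2601 CPM, so both WD ratios lean on replicate 2. Plain library totals moved all genes by 0.21 (log2) for N-LKO against WT liver and 0.25 for tumor against WT liver under WD. As libraries were left out, fold changes of single members turned sign under HFD for Mup20 (−0.26 to 0.09) and Mup21 (−0.57 to 0.05, and 0.01 without WT replicate 2). So did the difference between diets for Mup7 (−5.17 to 0.61), Mup15 (−2.71 to 0.84), Mup16 (−1.99 to 0.16), Mup17 (−2.76 to 0.94) and Mup21 (−1.20 to 0.18), each positive without WT replicate 2 under WD. The cause of these moves was not tested.

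With the replicate number as a block, 2 members passed under HFD, 0 for N-LKO against WT liver under WD, 0 for tumor against N-LKO liver, 5 for tumor against WT liver and 0 for the difference between diets. Deviations of same-numbered libraries correlated by −0.124 to 0.107, and those of differently numbered libraries by −0.247 to 0.148. The replicate numbers are not those in the submitters' library names. The block and these correlations therefore cannot tell whether a tumor and a liver came from the same mouse. Low counts in tumors limit the central members there (Mup12 had 11, 3.14 and 0).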
